A study of Drosophila melanogaster with 2 samples.

Results

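The 8 genes described are extra macrochaetae (emc), its best-known partner daughterless (da), the 4 bHLH genes of the achaete-scute complex, achaete (ac), scute (sc), lethal of scute (l(1)sc) and asense (ase), and 2 genes of the atonal family, atonal (ato) and amos. They were taken by name, with earlier results of these data known but with no measured value in the rule, from 13945 protein-coding genes annotated on 6 chromosomes of Drosophila melanogaster, and each was examined over the gene and 10 kb on either side. The data were chromatin immunoprecipitation and sequencing (ChIP-seq) with an antibody against GFP, from whole embryos of both sexes aged 0 to 24 h of 1 transgenic line that stably expresses emc with eGFP fused at its C-terminus. There was a single group of 2 samples, labelled as biological replicates with the numbers 1 and 3, and no wild-type or untagged library was among them. The labels do not say what drives the fusion protein, whether the line carries additional DNA of the emc region, or whether the replicates were separate collections, so the spread between replicates may be technical. In whole embryos a peak found in few cells cannot be told apart from a weak peak in many.

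Proteins with a basic helix-loop-helix (bHLH) domain bind DNA as dimers, at the E-box CANNTG. Daughterless is the common partner of the proneural proteins, which make ectodermal cells competent to become neural precursors: Achaete and Scute for external sense organs, Lethal of scute and Asense mainly in the central nervous system and in neural precursors, Atonal for chordotonal organs and photoreceptors, and Amos for olfactory sense organs. Emc has a helix-loop-helix but no basic region, and its dimers with Daughterless or proneural proteins do not bind the E-box, so that it acts as their antagonist. These statements are background from earlier genetics and biochemistry.

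The 4 peak lists used were on dm6. The IDR list, cut by the authors by reproducibility (the irreproducible discovery rate), held 1865 peaks, with signals of 62.7 to 1207. The pooled list held 29400 peaks and background regions, with signals from 18.8, and each replicate list held 30000. Signal is the authors' own value per peak, scaled within each list, and rank 1 is the highest signal of a list. The IDR list consisted of exactly the 1865 pooled peaks with the highest signal, so that an IDR peak here is a pooled peak above a signal limit, and its presence does not by itself show that both replicates ranked it alike. The number of reads behind a peak is unknown. Positions are dm6 and 1-based, and a peak was counted at a gene if its summit lay in the window.

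An IDR peak was found at 3 of the 8 genes, emc, da and amos, and at none of the achaete-scute genes or ato. Across all protein-coding genes 39.7% had an IDR peak in such a window, so a count of 3 of 8 lies near the background. Within 500 bp of an own annotated start there was an IDR summit at 2 of the 8, emc and da, against 10.6% of all genes. A pooled peak lay at 8 of 8 genes (97.2% of all genes), and peaks of each replicate that overlapped the other replicate lay at 6 of 8 (86.9% of all genes), the exceptions being ac and l(1)sc. The 8 windows covered 169 kb of sequence and held 4 IDR peaks and 49 pooled peaks, which is 0.236 and 2.89 per 10 kb, against 0.139 and 2.20 per 10 kb over the 6 chromosomes. Gene by gene the order was the other way round: the median window of the 8 genes held 2.51 pooled peaks per 10 kb, against 2.97 in the median window of all protein-coding genes. The windows of sc and l(1)sc overlapped each other, although no pooled peak was shared between them.

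**Figure D1:**
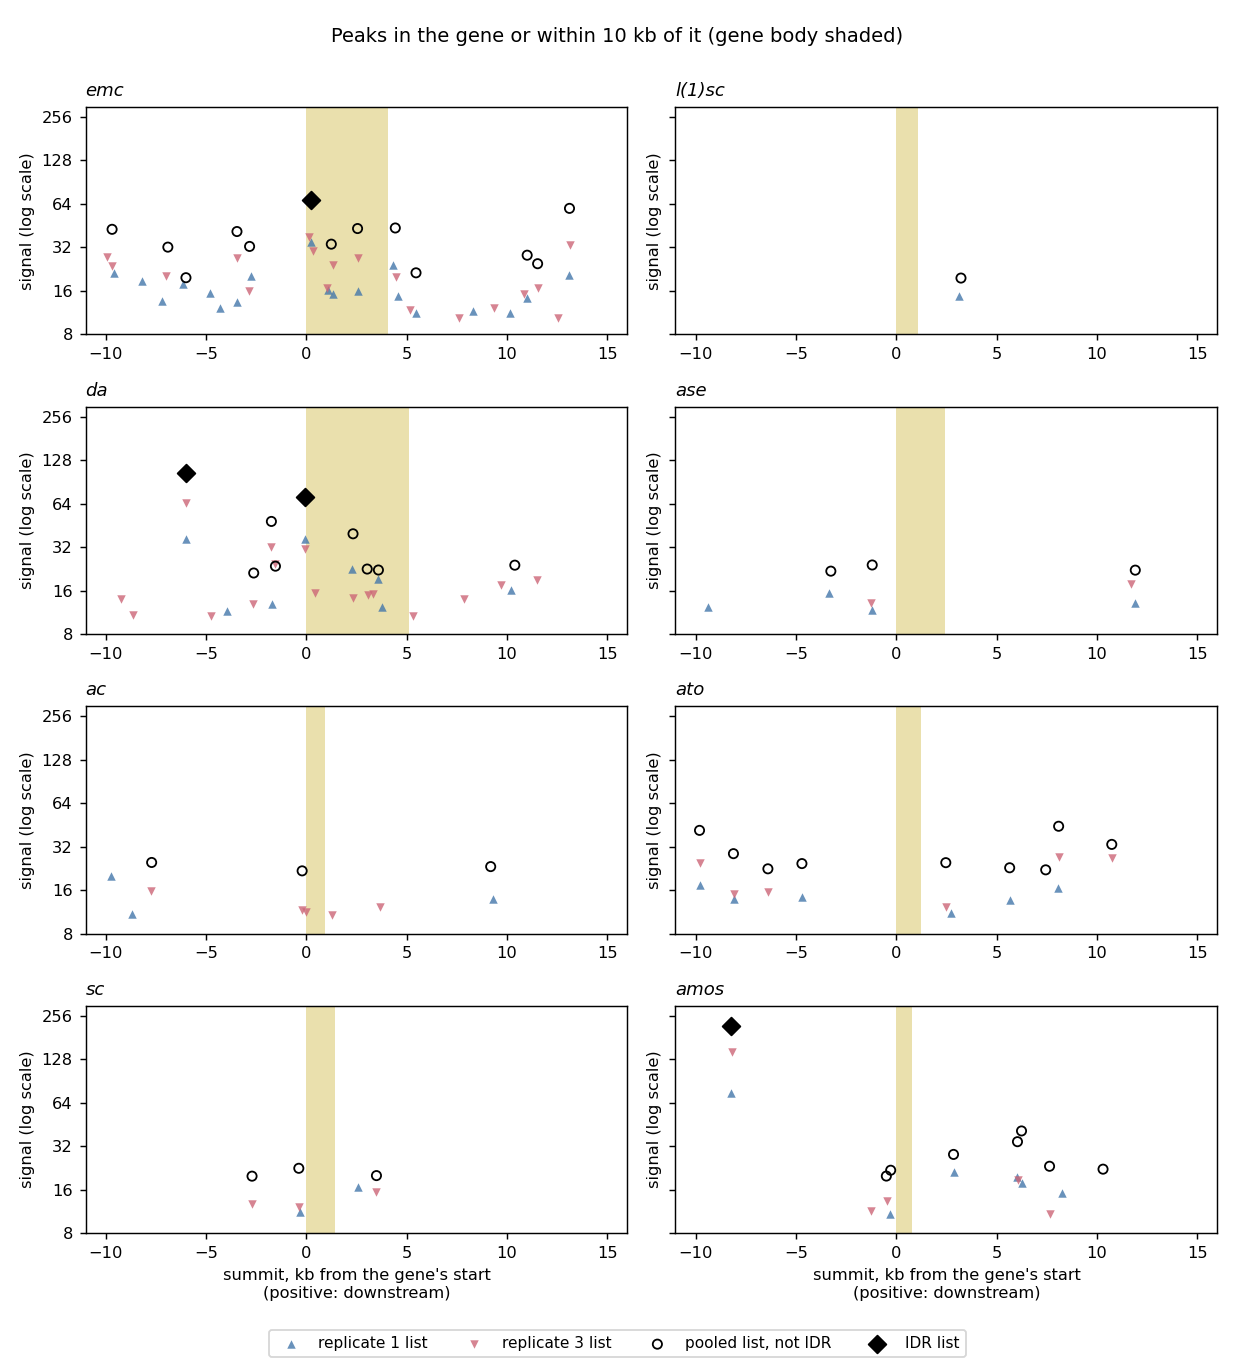
Each panel shows 1 gene, with the distance of each summit from the gene's start on the horizontal axis (kb, positive downstream) and the signal of the peak on the vertical axis (log scale); black diamonds are IDR peaks, open circles other pooled peaks, and triangles the peaks of replicates 1 and 3, whose signals are scaled separately from the pooled list. IDR peaks stand at the starts of emc and da and about 6 and 8 kb from the starts of da and amos, and the panels of ac, sc, l(1)sc and ase hold at most 3 pooled peaks each.

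At emc (FBgn0000575, 3L 749400 to 753492, forward strand), the gene of the tagged protein, the strongest peak lay just downstream of the start. This IDR peak spanned 3L 749455 to 749834, with its summit 245 bp downstream of the start, in the 5' UTR of emc and also within an intron of hng3, which runs across emc on the other strand. Its signal was 68.15 (−log10 q of 2.81), rank 1611 of 1865, so it was among the weaker IDR peaks. In replicate 1 the best overlapping peak had a signal of 34.7 and rank 1201, and in replicate 3 a signal of 37.7 and rank 1916. The replicate 3 list placed 2 peaks here, at 3L 749336 to 749725 and at 3L 749540 to 749929 (signals 37.7 and 30.4), where replicate 1 had a single one at 3L 749433 to 749788. In replicate 3 neither of these was among the 1865 highest-ranked peaks of that list.

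The sequence at the emc start is shown because the tagged protein is the product of this gene. The IDR peak and the replicate 1 peak begin downstream of the annotated start. Only a replicate 3 peak reaches across it, so the bases before the start lie under an entry of that list alone. Given are the bases from the left edge of the replicate 3 peak to the base before the start (chr3L:749336-749399, forward strand) and the coding bases from the start codon to the right edge of the IDR peak (chr3L:749664-749834, forward strand), with E-boxes in capitals; the 5' UTR between them is left out. This and the following sequences are from the RefSeq copy of the Release 6 genome (dm6). The first stretch has no E-box and has TATAAA 27 bases before the start. The second has 1, CAGGTG at 749692 to 749697, one of the forms that heterodimers of Daughterless with Achaete or Scute are known to bind.
emc upstream: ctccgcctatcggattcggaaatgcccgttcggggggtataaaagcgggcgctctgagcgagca
emc coding: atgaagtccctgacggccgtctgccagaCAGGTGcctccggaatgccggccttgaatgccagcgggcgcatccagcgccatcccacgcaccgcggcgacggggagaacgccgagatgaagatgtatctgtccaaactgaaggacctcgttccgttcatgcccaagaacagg

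Around this peak the emc window was crowded with weaker entries of the lists, which hold background regions too. It held 13 pooled peaks, 19 of replicate 1 and 18 of replicate 3, or 5.40, 7.89 and 7.47 per 10 kb. Apart from the IDR peak, the pooled −log10 q was 2.91 at 3L 762321 to 762700 and at most 1.27 at the others. Away from the start, −log10 q was at most 1.21 in replicate 1 and reached 2.74 in replicate 3. Of all protein-coding genes, 91.4% had a lower density in the pooled list, 99.96% in replicate 1 and 98.6% in replicate 3. Of the 19 replicate 1 peaks 13 overlapped a replicate 3 peak, against 41.9% of all replicate 1 peaks. Of the 18 replicate 3 peaks 14 overlapped a replicate 1 peak, against 44.3% of all. Of the 13 pooled peaks, 11 overlapped a peak in both lists, against 43.8% of all pooled peaks. No allowance was made for the closer spacing of peaks in this window.

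The strongest pooled peak at emc outside the IDR list lay at 3L 762321 to 762700, downstream of the gene, with a signal of 59.7. It ranked 2044 of the pooled peaks, 4134 in replicate 1 and 2456 in replicate 3. Peaks within the emc gene were the IDR peak and those at 3L 750455 to 750834 and 3L 751763 to 752142, with signals of 33.7 and 43.3, both in introns of emc. The remaining peaks of the window reached 43.65 at 3L 753643 to 754022, past the 3' end of the gene. For 7 of the 13 the summit lay in an intron of hng3 outside emc, for 3 in the gene emc and for 3 between genes. A nearest annotated start that belonged to hng3, and not emc, was found for 8 of them.

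The density at emc was part of a wider stretch. In 21 bins of 10 kb centred on the gene, 210 kb in all, there were 99 pooled peaks, 92 of replicate 1 and 104 of replicate 3, or 4.71, 4.38 and 4.95 per bin, where the median bin of the 6 chromosomes held 2 in each list. The 3 central bins held 16, 21 and 22 peaks. The other 18 bins averaged 4.61, 3.94 and 4.56, so the central bins stood above their surroundings in the replicate lists and less so in the pooled list. The highest bin of replicate 1 was 40 kb downstream of emc with 11 peaks. Around da 21 such bins held 69, 51 and 86 peaks. The labels do not say whether the line carries additional DNA of the emc region. Whether any such DNA had a part in the density at emc was not tested.

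**Figure D2:**
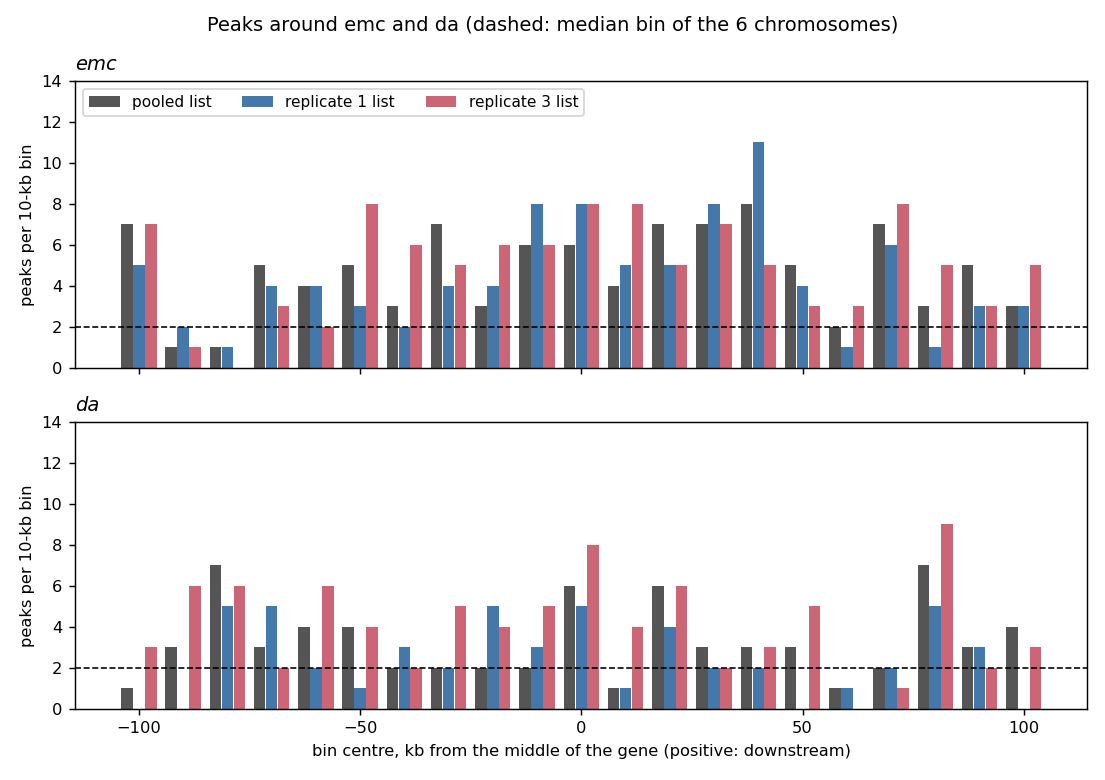
Peaks per bin of 10 kb (vertical axis) against the distance of the bin's centre from the middle of the gene (horizontal axis, kb), for emc above and da below, in the pooled list and in each replicate list; the dashed line is the median bin of the 6 chromosomes, 2 peaks. Bins around emc lie at or above that line out to 50 kb on either side, and the 3 central bins around emc hold 21 peaks of replicate 1.

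At da (FBgn0267821, 2L 10388105 to 10393228, forward strand), which encodes the class I bHLH partner of emc, an IDR peak lay on the start. Its summit lay 67 bp upstream of the annotated start, with no start of another gene within 500 bp. Its signal was 70.7 (−log10 q of 3.00), rank 1500 of 1865. It was about as strong as the emc peak in the pooled list, 70.7 and 68.15. The replicates placed it differently, with a signal of 36.7 and rank 1120 in replicate 1 and a signal of 31.1 and rank 2747 in replicate 3. In replicate 3 the peaks at both starts thus ranked below 1865.

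The window of da held a second IDR peak that was stronger and nearer to other genes. It lay at 2L 10381934 to 10382313, 5981 bp upstream of da, in the 3' UTR of gny (a glucosyltransferase gene) and 139 bp upstream of the start of CG5096. Its signal was 105, rank 756 of 1865, with rank 1134 in replicate 1 and 674 in replicate 3. The third pooled peak, at 2L 10386175 to 10386554, had a signal of 48.2 and lay 103 bp from the start of Cdk1, the kinase that drives entry into mitosis, and within 500 bp of mRpS7, a mitochondrial ribosomal protein gene. It ranked 18853 in replicate 1 and 2562 in replicate 3. Within da itself there were 3 pooled peaks, all in coding exons, with signals of 39.55, 22.55 and 22.2. Replicate 3 had 16 peaks in the window and replicate 1 had 8, of which 6 and 5 overlapped the other list. Over all peaks of these lists 44.3% and 41.9% did.

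The genes of the achaete-scute complex lie on the X chromosome within 93.1 kb, and no IDR peak was found over any of it. Of the 10 pooled summits found at these genes, 9 lay in an intron of CG32816, an annotated gene on the opposite strand that runs across the complex. The 4 windows covered 78.1 kb and held 10 pooled peaks, 10 of replicate 1 and 10 of replicate 3, or 1.28 per 10 kb in each list. The X chromosome as a whole had 1.80, 1.73 and 1.98 per 10 kb. It had 0.149 IDR peaks per 10 kb, so at that density a stretch of this length would hold few IDR peaks. The pooled signals ranged only from 19.65 to 24.9, where the lowest signal of the whole list was 18.8, and the best of them ranked 15175 of 29400. Their −log10 q reached 0.146 at most. In each replicate 3 of the 10 peaks overlapped the other list, against 41.9% of all peaks of replicate 1 and 44.3% of replicate 3.

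At ac (FBgn0000022, X 370031 to 370947, forward strand) there were 3 pooled peaks, none of which overlapped a peak in both replicates. The strongest, 24.9 at X 362136 to 362515, lay 73 bp from yar, a long non-coding RNA gene, and 7705 bp upstream of ac, and was in replicate 3 (rank 12296) but not in replicate 1. A weaker one with a signal of 21.8 and rank 21352 covered the region before the ac start, at X 369633 to 370012, with its summit 208 bp upstream. It was in replicate 3 at rank 24416, where a further peak in the 5' UTR of ac ranked 25963, and had no overlapping peak in replicate 1. Replicate 1 had 3 peaks and replicate 3 had 5 in the window, and 0 of each overlapped the other list (41.9% and 44.3% over all peaks).

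The region before the ac start is shown because it is the stretch before a start that holds the most CAGCTG and CAGGTG matches among the 8 genes, while its peak is in the lower part of the pooled list. The last 300 bases of that pooled peak (chrX:369713-370012, forward strand) hold CAGCTG at 369766 to 369771 and at 369834 to 369839 and CAGGTG at 369970 to 369975, in capitals. In 300 bases before the start, ac had 2 CAGCTG and 1 CAGGTG, ase had 1 CAGGTG, and the other 6 genes had neither. Over all protein-coding genes 15.3% had CAGCTG and 9.34% had CAGGTG in that stretch, on either strand. TATAAA stands 34 bases before the start of ac.
ac upstream: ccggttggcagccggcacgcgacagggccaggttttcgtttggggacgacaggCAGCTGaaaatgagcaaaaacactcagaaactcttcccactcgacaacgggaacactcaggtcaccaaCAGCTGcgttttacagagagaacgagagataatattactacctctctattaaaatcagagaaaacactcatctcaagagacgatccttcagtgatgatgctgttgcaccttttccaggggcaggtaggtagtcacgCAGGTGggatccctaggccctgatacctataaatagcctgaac

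At sc (FBgn0004170, X 396060 to 397497, forward strand) there were 3 pooled peaks with signals of 22.6, 20.1 and 19.9. The strongest, X 395496 to 395875, had its summit 374 bp upstream of the sc start and was in both replicates, at rank 26790 in replicate 1 and 22645 in replicate 3, both in the lower part of their lists of 30000. At l(1)sc (FBgn0002561, X 409721 to 410817, forward strand) a single pooled peak lay 3223 bp from the start, with a signal of 19.65 and rank 26855. It was in replicate 1 (rank 12510), and replicate 3 had no peak in the window. Of all protein-coding genes 3.40% had a lower best pooled signal than l(1)sc.

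At ase (FBgn0000137, X 460747 to 463176, forward strand) there were 3 pooled peaks, of signals 24.1, 22.2 and 21.8. The first, X 459358 to 459737, lay 1199 bp upstream of the start and was in both replicates, at ranks 23842 and 18852 of replicates 1 and 3. The second lay in a coding exon of ebo, 9478 bp past the end of ase. The nearest IDR peak to any gene of the complex was 30822 bp from ase, a peak with a signal of 426 at X 493880 to 494119 whose nearest start was that of CG17896.

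At ato (FBgn0010433, 3R 8278052 to 8279274, forward strand) there were 9 pooled peaks and no IDR peak. None lay within 500 bp of the ato start, and the nearest, with a signal of 24.8, was 2467 bp away. The strongest had a signal of 44.3 and rank 3478 and lay at 3R 8285950 to 8286329, between genes, 8088 bp downstream of the ato start and 1029 bp from the lncRNA gene CR44318. It ranked 8531 in replicate 1 and 3576 in replicate 3. The next, 41.5 at 3R 8268060 to 8268439, was in a coding exon of CG9630, and the third, 33.2 at 3R 8288597 to 8288976, lay 911 bp from the start of Nazo and had an overlapping peak in replicate 3 only. Each replicate had 6 peaks in the window, and 4 of each overlapped the other list (41.9% and 44.3% over all peaks of replicates 1 and 3).

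The 300 bases around the summit of the strongest ato peak are shown as the strongest signal at a proneural gene that was not beside the start of another protein-coding gene (chr3R:8285991-8286290, forward strand). They hold CAGATG at 8286038 to 8286043 and CATATG at 8286157 to 8286162, in capitals.
ato downstream: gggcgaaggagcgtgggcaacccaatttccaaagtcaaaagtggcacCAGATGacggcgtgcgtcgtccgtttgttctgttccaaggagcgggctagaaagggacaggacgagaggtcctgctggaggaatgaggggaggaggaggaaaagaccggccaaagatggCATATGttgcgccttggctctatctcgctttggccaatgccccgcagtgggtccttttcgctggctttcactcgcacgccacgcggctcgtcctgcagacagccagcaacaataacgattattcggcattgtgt

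At amos (FBgn0003270, 2L 18596136 to 18596921, reverse strand) the window held the highest signal of all 8 genes, at another gene's start. This IDR peak, 2L 18605096 to 18605243, had a signal of 219 and ranked 153 of 1865. It lay in the 5' UTR of CG10413, 107 bp from its start, and 8221 bp upstream of the start of amos. It was 148 bp wide, where 89.7% of IDR peaks were 380 bp wide and 3.32% were narrower than 150 bp. Replicate 1 had it at rank 252 with a signal of 75.2, and replicate 3 at rank 110 with a signal of 145. With windows of 5 kb it was no longer counted at amos.

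Near the amos start itself there were only weak peaks. The pooled peaks at 2L 18597010 to 18597389 and 2L 18597226 to 18597605 overlapped each other, had signals of 21.9 and 19.9, and lay with their summits 279 and 495 bp upstream. The first ranked 21148 of 29400. A single peak of each replicate overlapped them, at rank 28273 in replicate 1 and 18231 in replicate 3. The second strongest pooled peak of the window, 40.9 at 2L 18590492 to 18590871, lay 209 bp from the start of CG15160 and also within 500 bp of a start of Pde11, a phosphodiesterase gene. The 300 bases of the upstream peak nearest to amos are shown for comparison with those before ac (chr2L:18597010-18597309, reverse strand, so that the sequence reads toward the gene). They hold CAAATG and CATATG, in capitals, and no CAGCTG or CAGGTG.
amos upstream: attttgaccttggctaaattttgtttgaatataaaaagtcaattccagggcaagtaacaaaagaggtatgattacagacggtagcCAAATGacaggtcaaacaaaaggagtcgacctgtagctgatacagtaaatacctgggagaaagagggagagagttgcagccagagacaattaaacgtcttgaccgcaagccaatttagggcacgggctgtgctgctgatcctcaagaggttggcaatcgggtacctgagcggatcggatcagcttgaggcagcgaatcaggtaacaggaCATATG

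**Figure D3:**
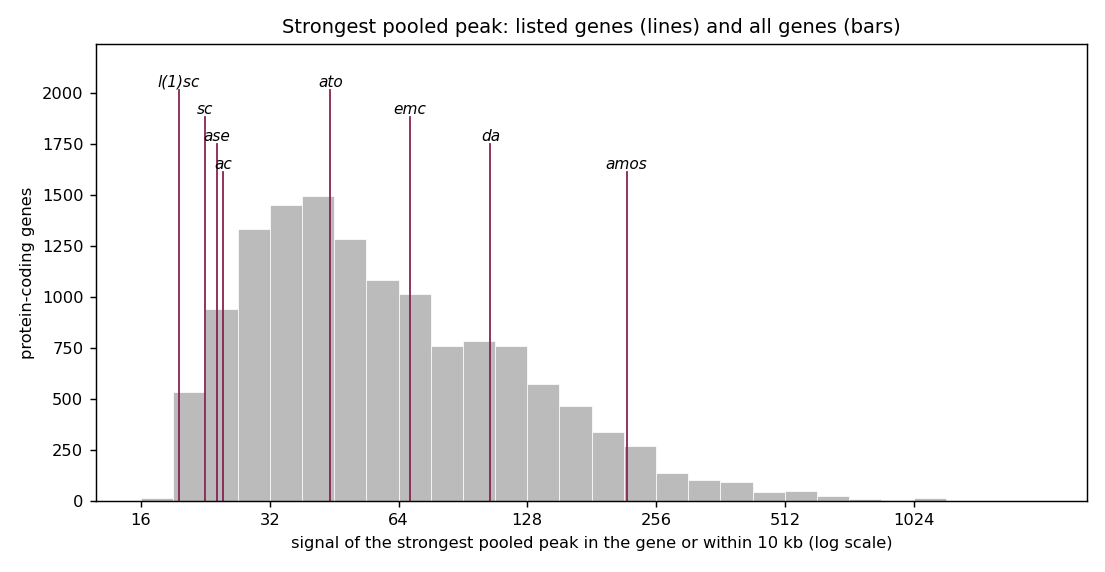
Number of protein-coding genes (bars, vertical axis) by the signal of the strongest pooled peak in the gene or within 10 kb (horizontal axis, log scale), with a line for each of the 8 genes; the 391 genes with no pooled peak in the window are not drawn. The lines of l(1)sc, sc, ase and ac stand at 19.65 to 24.9 at the low end, ato is at 44.3, and emc, da and amos are at 68.15, 105 and 219.

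Set in order of the strongest pooled peak, the genes ran amos, da, emc, ato, ac, ase, sc and l(1)sc. Of all protein-coding genes, 94.8% had a lower value than amos, 78.4% than da, 63.6% than emc, 43.0% than ato, 10.2% than ac, 9.04% than ase and 6.61% than sc. The median over the 8 was 34.6, against 50.6 over all protein-coding genes. The first 2 places rest on peaks at the starts of CG10413 and CG5096. Neighbouring genes share windows and peaks, so these shares are a description of the list and not a test. Of the 49 pooled peaks in the windows, the nearest annotated start was that of the listed gene for 17.

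Near the limit of 10 kb, the farthest counted pooled peaks lay 9802 bp from ato (signal 41.5), 9676 bp from emc (42.7), 9515 bp from amos (22.25) and 9478 bp from ase (22.2). The nearest peaks beyond the limit lay 10167 bp from l(1)sc (20.1), 10435 bp from emc (39.96) and 10739 bp from amos (30.3). The nearest IDR peaks beyond the limit were 15079 bp from da (signal 127) and 18117 bp from emc (65.3). For ato and amos they were 38228 bp (71.2) and 28318 bp (79.7) away.

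**Figure D4:**
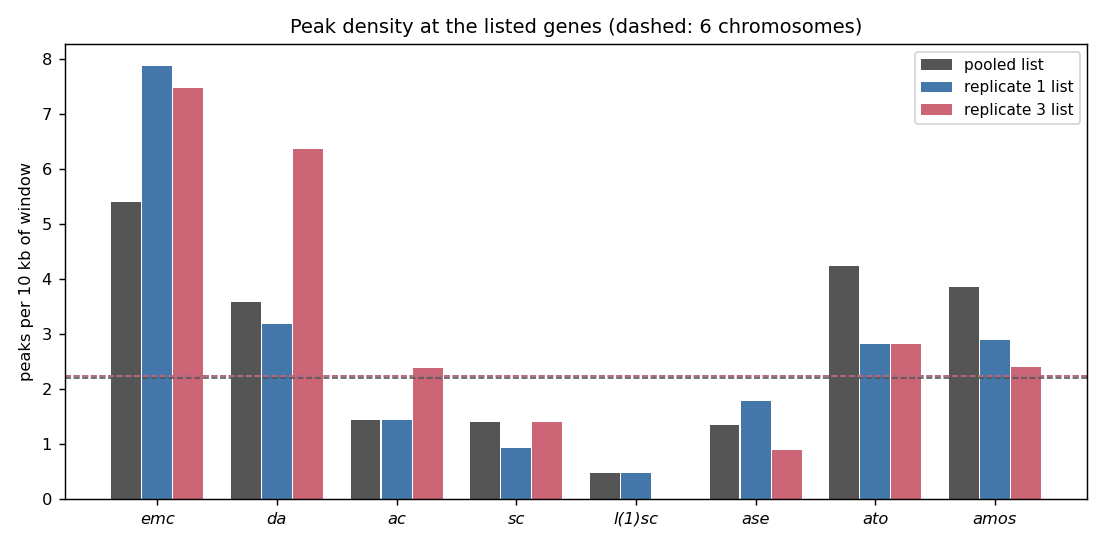
Peaks per 10 kb of window (bars from 0) for each gene, in the pooled list and in the lists of replicates 1 and 3; dashed lines give the density over the 6 chromosomes, 2.20 to 2.24. The bars of emc reach 5.40 to 7.89, those of sc, l(1)sc and ase lie below the dashed lines, and replicate 3 has 6.37 at da where replicate 1 has 3.18.

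The replicates were compared next, over all peaks in the windows. Of 49 peaks of replicate 1, 29 overlapped a replicate 3 peak, 59.2% (exact Clopper-Pearson 95% interval 44.2 to 73.0), against 41.9% of all replicate 1 peaks. Of 55 peaks of replicate 3, 30 overlapped a replicate 1 peak, 54.5% (40.55 to 68.0), against 44.3% of all. Intervals cover counting error only, and peaks that lie close together are not independent. In the windows of emc, da, ato and amos together 26 of 39 peaks of replicate 1 overlapped, and in those of the achaete-scute genes 3 of 10. The second count rests on only 10 peaks, and whether the share differed between the genes was not tested. The emc window, the most crowded of these windows in replicate 1, alone supplied 13 of the 29.

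Signals of the 29 overlapping pairs were somewhat higher in replicate 3. The median log2 ratio of replicate 1 over replicate 3 was -0.16, with an SD of 0.461 over the pairs, and 6 of the 29 were higher in replicate 1. Over all 12580 overlapping pairs the median was -0.14 with an SD of 0.587 and 39.6% were higher in replicate 1, so the medians differed by far less than the spread between pairs. The ratios ran from -1.32 at the Cdk1 peak near da to 0.66 at a coding exon of da, and the peaks at the starts of emc and da had -0.12 and 0.24. The Spearman rho over the 29 pairs was 0.600, against 0.48 over all 12580 pairs, and the Pearson r of log2 signals was 0.804. This is a description of pairs from the same 2 libraries, in which the peak at CG10413 has by far the highest signal. Some replicate 3 peaks enter more than 1 pair.

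**Figure D5:**
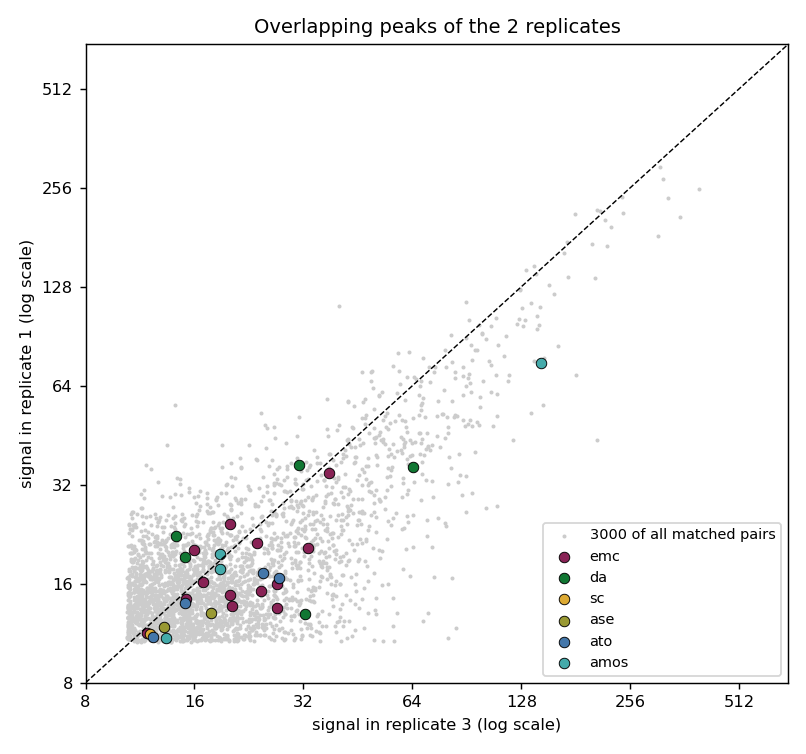
Signal in replicate 1 (vertical axis) against signal in replicate 3 (horizontal axis), both on log scales, for the 29 overlapping pairs in the windows, coloured by gene, and for 3000 of the 12580 overlapping pairs of the whole lists in grey; the dashed line marks equal signal. The pairs of the listed genes lie within the grey cloud, 23 of 29 on the side of higher signal in replicate 3, and no pair comes from ac or l(1)sc.

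The share of peaks with an E-box was near that of all peaks. CANNTG, which reads the same pattern on both strands, was within 100 bp of the summit in 34 of the 49 pooled peaks, 69.4% (54.6 to 81.75), against 67.0% of all pooled peaks and 63.4% of all IDR peaks in windows of the same length. All 4 IDR peaks of the windows held at least 1 (exact interval 39.8 to 100%). CAGGTG was in 2 of the 4 (interval 6.76 to 93.2%), those at the start of emc and at CG10413, against 5.85% of all IDR peaks. CAGCTG and CATATG were in 0 of the 4, against 10.3% and 7.40% of all IDR peaks. With only 4 peaks these shares are very uncertain. CAGCTG was in 3 of the 49 (6.12%, against 11.5% of all pooled peaks) and CAGGTG in 4 (8.16%, against 9.73%), on either strand and each counted within CANNTG too. CATATG was in 6 (12.2%; interval 4.63 to 24.8; against 5.47%). The N-box CACNAG, a site of the Enhancer of split repressors, was in 14 (28.6%, against 26.04%). It was in 2 of the 4 IDR peaks, against 23.2% of all IDR peaks. The DNA replication-related element TATCGATA and the GAGA motif GAGAGAG were each in 1 of 49 (2.04%), against 1.62% and 3.26% of all pooled peaks. A match says only that the letters are there.

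Other genes of the family and of the pathway were examined in the same windows. Of 20 other bHLH and HLH genes 6 had an IDR peak, 30% (11.9 to 54.3), and of 22 genes known to act with or on proneural genes 7 had one, 31.8% (13.9 to 54.9), both near the 39.7% of all genes. In the first list crp, a bHLH leucine zipper gene, had a signal of 151 with the summit 118 bp from its own start. The strongest peaks at Fer1 and Fer2 (117.5 and 94.95) were nearest to the starts of CG10068 and Mic26-27. In the second list ush, which encodes a cofactor of the GATA factor Pannier, had the highest signal, 870.5, in its intron, 4883 bp from its own start and 1415 bp from the nearest annotated start, that of cbt. The corepressor gene gro (207) and the zinc finger gene chn (141) had peaks 141 and 231 bp from their own starts, and neur, a ubiquitin ligase gene of the Notch pathway, had 1 peak of 114.6 in an intron. An IDR summit within 500 bp of an own start was found for 1 of the 20 and 2 of the 22 genes, against 10.6% of all protein-coding genes.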

How the data were processed

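Peak lists in narrowPeak format on dm6 were used as the authors deposited them: 1 relaxed list of peaks and background per replicate, 1 such list pooled over both replicates, and 1 IDR-thresholded list derived from these, as the deposited file listings state. The deposited signal of each peak and the deposited −log10 q-value are the authors' own values. Both replicates used the same control alignment, which was not analysed here. No source used here names the aligner, peak caller, IDR threshold or read depth. Sonicated fragments were 200 to 800 bp, per the labels.

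Genes and starts came from Ensembl release 115 (annotation 6.54) and sequence from the RefSeq copy of Release 6; lists on dm3 were not used. Starts are those of protein-coding and non-coding RNA transcripts. A peak was placed by its summit, and replicate peaks were matched from 1 bp of overlap. Ranks follow signal, then −log10 q. Counts at the listed genes are set beside the same counts over all protein-coding genes on 2L, 2R, 3L, 3R, 4 and X, with no test, since the genes and lists were chosen with earlier results of these data known. With 2 replicates in 1 group no comparison between groups was possible. Named genes were the 8 members, the gene of the nearest start to each IDR peak in their windows, the strongest pooled peak of each window, and up to 4 genes per list by IDR signal; the annotation has h as hry and Dl as Delta. Of these, 1 gene's result and 1 sequence are not reported here. Other genes are named where a peak lay at them, after its values were seen. The bins of 10 kb, the search for TATAAA and the promoter stretches were chosen after seeing the data. The steps were tested on simulated intervals and sequences with planted answers, all of which were recovered. Versions were scipy 1.17.1 (intervals), pandas 2.3.3, matplotlib 3.10.9 (plots) and numpy 2.4.6 under Python 3.11.15.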

Additional observations from a re-analysis of the deposited data

How the results depend on the processing

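Of 31 alternatives, 24 left the value within 1.5 times a count, within the 95% interval of a share or within 1 SD of a ratio, and 7 moved a value. None reversed a direction, but only the log2 ratio of the replicate signals has a direction, the rest being counts or shares. With signals divided by the median over matched peaks, the median ratio of the pairs was -0.03 in place of -0.16. The number of IDR peaks in the windows, 4, was 2 with 5 kb or 2 kb on each side, where the peaks at CG5096 and CG10413 were left out, and 2 among the 932 IDR peaks of higher signal, where those at the starts of emc and da were left out. No IDR list exists for a single replicate, so the 1865 highest-ranked peaks of each replicate list were taken in its place. There were 4 in the windows with replicate 1, and 2 with replicate 3, where the start peaks of emc and da were again left out. The genes with a peak numbered 2 or 3 of 8 throughout: emc and da with 5 or 2 kb (28.6% and 19.8% of all genes), da and amos in the upper part of the IDR list (25.1%) and in replicate 3 alone (39.5%). With replicate 1 alone the genes were emc, da and amos (40.6%). The emc peak was thus within the limit of 1865 there and just outside it in replicate 3, where it ranked 1916 of 30000. E-boxes were in 46.9% of the 49 peaks within 50 bp and 93.9% within 250 bp, against 42.6% and 93.3% of all pooled peaks, and CAGCTG or CAGGTG in 14.3%, against 19.9%; these shares differ by construction, with the window and the motif. No paired analysis was possible because there is 1 group. Read depth is unknown, so the absence of an IDR peak at ato and the achaete-scute genes means that none passed at the depth and threshold used by the authors.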

Other observations

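Between the windows of l(1)sc and ase lay 29.9 kb of the achaete-scute complex that no window covered. It held 0 IDR peaks, 2 pooled peaks with signals of at most 19.0 (the better at rank 28819 of 29400), 3 peaks of replicate 1 and 1 of replicate 3, none of them overlapping between replicates. From the start of ac to the end of ase there were 9 pooled peaks over 93.1 kb, 0.966 per 10 kb. In the 210 kb around ac, sc, l(1)sc and ase, the pooled list held 28, 28, 27 and 34 peaks, in bins that largely overlap between these genes, against 69 around ato and 72 around amos.

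TATAAA stood within 50 bp before the start of emc, ac, ato and amos, at 27, 34, 33 and 44 bases, and was not found there at da, sc, l(1)sc or ase. Over all protein-coding genes 10.6% had it. It was searched on the strand of the gene, from the outermost annotated start.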
